A study of Mus musculus with 6 samples.

Results

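The data describe 7 genes whose RNA is known to change when a skeletal muscle loses its nerve supply: Ncam1, Runx1, Hdac4, Gadd45a and Ampd3, which are known to be higher in denervated muscle, and Hdac9 and Dach2, which are known to be lower. They were chosen by symbol from a table of 24411 genes, and all 7 were in the table and among the 12892 genes that passed the filter on low counts. The question was whether a fast-twitch muscle with Akt1 and Akt2 targeted for deletion in its fibres carries the RNA changes of denervation.

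RNA was taken from extensor digitorum longus (EDL), a fast-twitch muscle of the lower leg, of mice on the C57BL/6J strain at the age of 50 weeks. The 3 mAktDKO mice carried floxed Akt1 and Akt2 together with Mlc1f-Cre, and the 3 control mice carried the same floxed alleles without the recombinase. Cre stands behind the promoter of a myosin light chain that is used mainly by fast fibres, so nerve, satellite, vascular and connective tissue cells of the muscle were not the target of the deletion. The mAktDKO mice are numbered 1 to 3 and the control mice 2 to 4, as in the deposited table, and p-values measure the spread between these 3 mice a group. No mouse with a cut nerve was part of the comparison, so the known directions are background and not a measurement here.

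A muscle fibre that receives no impulses from its motor neuron turns on a set of genes that are otherwise kept silent outside the synapse. In the best-known relay, class IIa histone deacetylases accumulate in the nuclei of the fibre, the repressor Dach2 is lost, and the myogenic factor myogenin then switches on acetylcholine receptor subunits and ubiquitin ligases. Runx1 limits the wasting of denervated fibres, Gadd45a remodels their nuclei, Ampd3 deaminates AMP, and Ncam1 puts an adhesion molecule back on the whole fibre surface.

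The promoters of the repressors are shown first, because Dach2 had the largest difference of the 7 genes and Hdac9 the smallest, although both are known to be lowered by denervation. Each sequence is the 250 bases before a RefSeq transcription start (build GRCm38.p6), 5′ to 3′ on the strand of the gene. Capitals mark E-boxes (CANNTG, a palindromic pattern, so that one search covers both strands), the letters to which myogenin and the other myogenic factors bind. The Dach2 window is chrX:113297260-113297509 on the plus strand, and the Hdac9 window is chr12:34917096-34917345 on the minus strand.
Dach2: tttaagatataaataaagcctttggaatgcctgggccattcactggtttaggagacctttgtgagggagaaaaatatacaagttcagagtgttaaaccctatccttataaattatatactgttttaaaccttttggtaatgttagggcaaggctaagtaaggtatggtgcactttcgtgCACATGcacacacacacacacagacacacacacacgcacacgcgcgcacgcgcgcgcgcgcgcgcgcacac
Hdac9: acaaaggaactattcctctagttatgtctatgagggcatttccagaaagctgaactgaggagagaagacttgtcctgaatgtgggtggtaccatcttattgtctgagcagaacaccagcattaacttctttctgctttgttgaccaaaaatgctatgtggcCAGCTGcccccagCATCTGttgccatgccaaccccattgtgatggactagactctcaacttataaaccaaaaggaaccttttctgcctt

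The Dach2 window held 1 E-box, 71 bases before the start, and the Hdac9 window held 2, at 89 and 76 bases before it. Each gene has another RefSeq start, whose window held 0 E-boxes in Dach2 and 3 in Hdac9, the latter with an AP-1 motif (TGANTCA, in 6.75% of all windows). An E-box of any kind stood in 66.2% of 32851 RefSeq promoter windows of the same length, and CAGCTG, the form 89 bases before the Hdac9 start, in 13.0%. The forkhead motif GTAAACA, to which FoxO factors bind and which stands in 3.17% of all windows on either strand, was not in any of the windows of Runx1, Hdac4, Gadd45a, Ampd3, Hdac9 and Dach2. Neither was the MEF2 motif, which stands in 2.92% of all windows.

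The 7 genes lie on separate chromosomes (GENCODE M21, mm10). Ncam1 is on chromosome 9 from 49502136 to 49798925, Runx1 on 16 from 92601466 to 92826149, Hdac4 on 1 from 91928779 to 92195699, and Gadd45a on 6 from 67035096 to 67037457, all on the minus strand. Hdac9, also on the minus strand, spans 34047580 to 34917095 of chromosome 12. Ampd3, on 7 from 110768206 to 110812405, and Dach2, on X from 113297510 to 113836386, are on the plus strand. Reads of 5 of the genes could be shared with an overlapping gene, because antisense exons cover 3536 bases of Hdac4 (Gm26720), 417 of Ncam1 (Gm11149), 337 of Gadd45a (E230016M11Rik), 195 of Ampd3 (Rnf141, with 196 more shared with B430319F04Rik) and 106 of Runx1 (Gm26626). The libraries keep the strand, but the strand setting of the counting is not given in the sources used here. Gm11149 had 0 counts in every mouse and E230016M11Rik 3 to 5. Rnf141 had 71 to 119 counts a mouse, beside 196 to 375 for Ampd3, which also shares 83 bases with Gm47282 on its own strand. Gm26720, Gm26626, B430319F04Rik and Gm47282 were not among the counted genes under these symbols, so no counts can be given for them. No exon of another gene overlapped those of Hdac9 and Dach2.

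Levels are given in CPM, counts relative to library size after the libraries were put on one scale by the TMM method of edgeR. Differences are given as the log2 ratio of mAktDKO over control, with its standard error (SE), from the quasi-likelihood test of edgeR. The p-values were adjusted by the Benjamini-Hochberg method over all 12892 genes, and a gene was called at an adjusted p under 0.01. Totals were 13738795 to 15445523 estimated counts per mouse, at which 3 counts, the floor for counting error, correspond to 0.180 to 0.227 CPM. Akt2, the targeted gene with the clearer loss, had 49.1 to 52.7 CPM in mAktDKO and 133 to 172 CPM in control mice, a log2 ratio of -1.55 (edgeR, adjusted p = 0.000923). Akt1 had 51.4 to 58.9 CPM and 65.5 to 66.5 CPM, a log2 ratio of -0.25 (adjusted p = 0.114, edgeR), or -0.11 with libraries scaled by their totals. Control mouse 2 differed most from the mAktDKO mice, with a chi-square per degree of freedom of 50.6 to 69.9, while all other pairs of mice had 7.64 to 28.6.

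Of the 7 genes, 0 were called at the threshold, where 0.0233% of all tested genes were called (3 genes). At an adjusted p under 0.05, 0 of the 7 and 1.18% of all genes were called. DESeq2's Wald test called 0 of the 6 that had an adjusted p there (all but Dach2) and 3.55% of the 9616 genes to which it gave an adjusted p, and limma-voom called 0 of the 7 and 0.0233% of all genes. Before adjustment, 1 of the 7 was higher at p under 0.05 in edgeR, Runx1, against 11.4% of all genes, and 1 was lower, Dach2, against 13.1% of all genes. The levels of all mAktDKO mice were above all control mice in 0 of the 7, against 14.6% of all genes, and below them in 2, Dach2 and Hdac4, against 16.6% of all genes.

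The direction of 6 of the 7 genes was the one known for denervation, with Hdac4 as the exception, and of 5 of the 7 without mAktDKO mouse 3 or with libraries scaled by their totals, when Hdac9 turned. The median log2 ratio was 0.16 over the 7 genes and 0.017 over all tested genes, and that of the 7 was 0.039 without mAktDKO mouse 2 and 0.040 without control mouse 3. Scaling by library totals in place of TMM moved the median of all genes to 0.16 and that of the 7 to 0.30, and the log2 ratio was then 0.36 in Gadd45a, 0.30 in Ampd3, 0.042 in Hdac9 and -0.039 in Hdac4. Of all tested genes, 52.5% lay higher in the mAktDKO mice, and members of both known directions were chosen, so the median of the 7 does not by itself measure a denervation pattern.

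**Figure D1:**
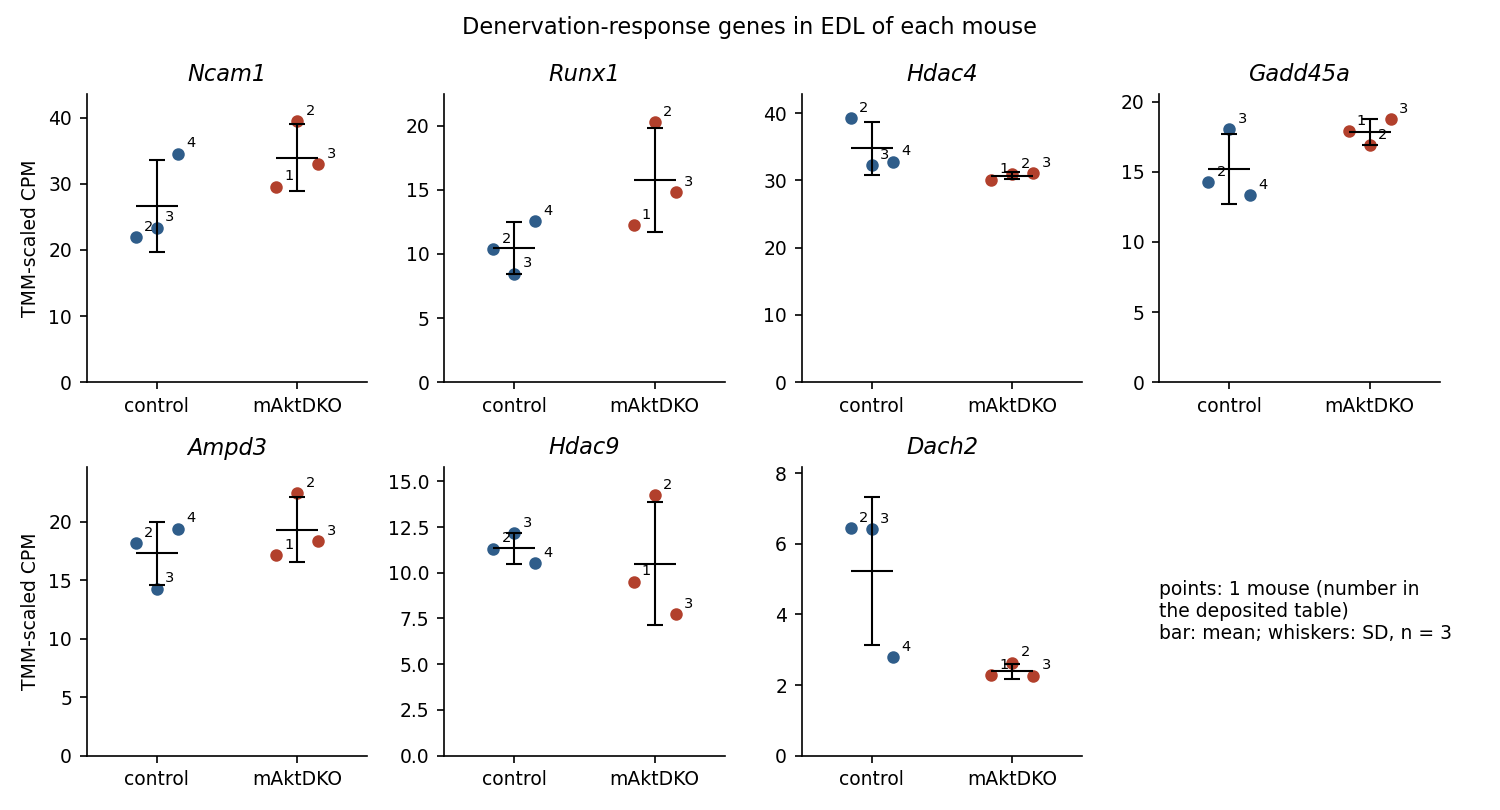
TMM-scaled CPM of the 7 genes in each mouse (control in blue, mAktDKO in red; the number beside a point is the mouse; the bar is the mean and the whiskers the SD, n = 3). The groups are apart only in Hdac4 and Dach2, where control mouse 4 at 2.80 CPM lies next to the mAktDKO mice.

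Dach2, a corepressor that keeps myogenin silent in innervated fibres, had the lowest level and the largest difference of the 7 genes. It was at 2.28, 2.64 and 2.26 CPM in mAktDKO mice 1, 2 and 3, and at 6.43, 6.42 and 2.80 CPM in control mice 2, 3 and 4. The estimated counts behind these values were 36, 44 and 33 against 92, 88 and 37. The groups did not overlap, but control mouse 4 was closer to the mAktDKO mice than to the other control mice. Group means were 2.39 ± 0.21 and 5.22 ± 2.09 CPM (SD, n = 3 each). The log2 ratio of -1.12 (SE 0.31, 95% interval -1.82 to -0.42) had an adjusted p of 0.0849 in edgeR, and Dach2 ranked 822 by p among the tested genes. Without control mouse 4, it was -1.42 with an adjusted p of 0.0310, and when any other mouse was left out it lay between -1.20 and -0.95. DESeq2 gave Dach2 an unadjusted p of 0.00108 and no adjusted p.

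Hdac9, a class IIa deacetylase that keeps acetylcholine receptor genes low in innervated fibres, was at 9.51, 14.3 and 7.75 CPM in mAktDKO mice 1, 2 and 3. Control mice 2, 3 and 4 had 11.3, 12.2 and 10.5 CPM. The mAktDKO mice held both the highest and the lowest value, so the control range lay inside theirs. The log2 ratio was -0.11 (SE 0.21, adjusted p = 0.778, edgeR), with a 95% interval from -0.57 to 0.36, which contains neither a halving nor a doubling of the level. It depended on single mice, being -0.038, -0.39 and 0.053 without mAktDKO mice 1, 2 and 3, and -0.053 and -0.16 without control mice 3 and 4.

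Hdac4, the deacetylase that accumulates at the synapse and in the nuclei of denervated fibres and represses Dach2, was at 30.1, 31.0 and 31.1 CPM in mAktDKO mice 1, 2 and 3 and at 39.3, 32.2 and 32.8 CPM in control mice 2, 3 and 4. It lay lower in all mAktDKO mice than in any control mouse, against the direction known for denervation, with control mouse 2 as the high value. Group means of 30.7 ± 0.52 and 34.8 ± 3.92 CPM (SD, n = 3 each) corresponded to a log2 ratio of -0.18 (SE 0.098, 95% interval -0.40 to 0.041, adjusted p = 0.281, edgeR). Without control mouse 2 it was -0.084.

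Runx1, a transcription factor that is low in innervated muscle, was at 12.2, 20.2 and 14.8 CPM in mAktDKO mice 1, 2 and 3 and at 10.3, 8.46 and 12.6 CPM in control mice 2, 3 and 4. The groups overlapped, since mAktDKO mouse 1 was below control mouse 4. The means of 15.8 ± 4.09 and 10.5 ± 2.05 CPM (SD, n = 3 each) corresponded to a log2 ratio of 0.60 (SE 0.20, 95% interval 0.13 to 1.06, adjusted p = 0.131, edgeR). Without mAktDKO mouse 2, the value was 0.37 with an adjusted p of 0.393.

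Runx1 is also a gene of blood cells, and the summed CPM of 6 leukocyte markers was 81.9 to 98.0 in the mAktDKO mice and 58.1 to 81.7 in the control mice. All 6 markers lay higher, with a median log2 ratio of 0.50, and edgeR called 0 of them (3 at an unadjusted p under 0.05). The most abundant of them, Lyz2 and Csf1r, had log2 ratios of 0.20 and 0.25. Cd68 (0.93), Ptprc (0.64) and Adgre1 (0.51), named after their values were seen, lay higher in every mAktDKO mouse. The part of leukocytes in the Runx1 value was not tested, and in bulk RNA more (or fewer) cells of a type and more (or less) RNA per cell cannot be told apart.

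Ncam1, the neural cell adhesion molecule, was at 29.5, 39.4 and 32.9 CPM in mAktDKO mice 1, 2 and 3. In control mice 2, 3 and 4 it was at 21.95, 23.3 and 34.6 CPM. Control mouse 4 exceeded 2 of the mAktDKO mice, and the groups overlapped. The log2 ratio was 0.35 (SE 0.18, 95% interval -0.048 to 0.76, adjusted p = 0.250, edgeR). It was 0.58 with an adjusted p of 0.0566 without control mouse 4, and 0.23 without control mouse 2 and also without mAktDKO mouse 2. Ncam1 is made by Schwann and satellite cells too. The summed CPM of 6 Schwann cell markers was 383 to 495 in the mAktDKO mice and 315 to 398 in the control mice, and that of 4 satellite cell markers 21.2 to 23.9 and 22.9 to 30.2. Of the single markers, 5 of 6 Schwann cell genes (median log2 ratio 0.26) and 3 of 4 satellite cell genes (median 0.15) lay higher, with Cdh15, the most abundant satellite cell marker, at -0.42, and edgeR called 0 of them. Their part in the Ncam1 value was not tested.

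Gadd45a, a stress-induced nuclear protein, was at 17.9, 16.9 and 18.7 CPM in mAktDKO mice 1, 2 and 3. In control mice 2, 3 and 4 it was at 14.3, 18.0 and 13.3 CPM. Control mouse 3 lay within the mAktDKO range, so the groups overlapped. The log2 ratio was 0.23 (SE 0.13, 95% interval -0.059 to 0.52, adjusted p = 0.291, edgeR), and it was 0.37 (adjusted p = 0.135) without control mouse 3 and 0.14 (adjusted p = 0.527) without control mouse 4.

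Ampd3, the AMP deaminase isoform of red cells that atrophying muscle also makes, was at 17.2, 22.5 and 18.4 CPM in mAktDKO mice 1, 2 and 3, and at 18.2, 14.3 and 19.4 CPM in control mice 2, 3 and 4. The values of both groups were interleaved. The log2 ratio was 0.16 (SE 0.15, adjusted p = 0.511, edgeR), with a 95% interval from -0.17 to 0.49 that does not contain a doubling. It was 0.039 without mAktDKO mouse 2, 0.040 without control mouse 3 and 0.25 without control mouse 4. The summed CPM of 6 erythroid markers was 150 to 321 in the mAktDKO mice and 114 to 168 in the control mice. All 5 tested markers lay higher, with a median log2 ratio of 0.47. Against 14.6% of all genes, 2 of them lay higher with groups that did not overlap, both at an unadjusted p under 0.05. These 2, Hba-a2 and Hbb-bs, are globin genes with near-identical copies, between which the counting divides shared reads. In mAktDKO mouse 3, Hba-a2 had 103 CPM and its copy Hba-a1 23.7 CPM, and in control mouse 3 they had 25.9 and 117 CPM. Alas2, named like these after its values were seen, had 0.40 with overlapping groups. The part of the erythroid markers in the Ampd3 value was not tested.

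An exact permutation test of each gene over the 6 mice, two-sided, gave p = 0.1 for Dach2 and Hdac4, the smallest value that 3 mice against 3 allow. For the other genes the exact p was 0.2 for Runx1, 0.3 for Ncam1 and Gadd45a, 0.5 for Ampd3 and 0.6 for Hdac9.

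**Figure D2:**
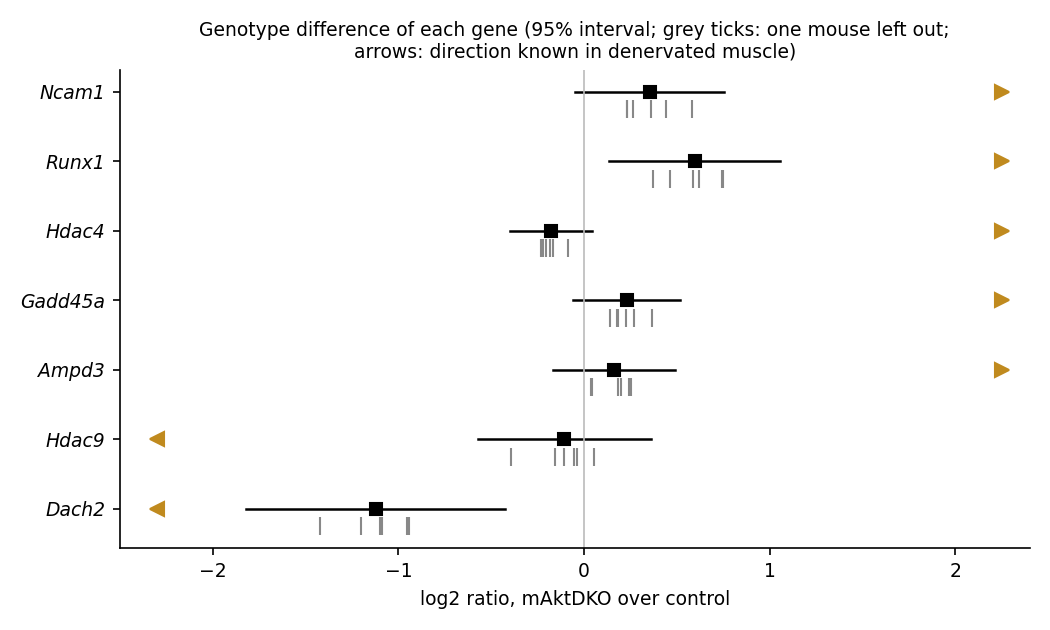
Log2 ratio of mAktDKO over control for each of the 7 genes (squares) with its 95% interval (lines), the values with one mouse left out (grey ticks) and the direction known in denervated muscle (arrows). The interval of Dach2 (-1.82 to -0.42) and that of Runx1 (0.13 to 1.06) lie on one side of 0, before any adjustment for the number of genes.

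The mice did not rank alike across the 7 genes. mAktDKO mouse 2 had the highest level of its group in 5 of the 7 (Ncam1, Runx1, Ampd3, Hdac9 and Dach2), and control mouse 4 had the highest of its group in 3 (Ncam1, Runx1 and Ampd3) and the lowest in 3 (Gadd45a, Hdac9 and Dach2). In Ncam1, Runx1 and Dach2, control mouse 4 was thus the control mouse nearest to the mAktDKO mice. Both of these mice also had the highest levels of Runx2, the osteoblast factor of the Runx1 family, at 8.09 CPM in mAktDKO mouse 2 and 7.11 CPM in control mouse 4, while the other mice had 1.60 to 2.097 CPM.

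Per kilobase of exon, Gadd45a had the highest level of the 7 genes, with means of 10.1 CPM per kb in mAktDKO and 8.61 in control mice. Ncam1 (3.92 and 3.07 CPM per kb) and Ampd3 (3.44 and 3.07) followed, and in the control mice these means were equal to 3 digits. Below them came Hdac4 (1.94 and 2.20 CPM per kb), Runx1 (1.31 and 0.869), Hdac9 (0.716 and 0.773) and Dach2 (0.243 and 0.529). Runx1 and Hdac9 were the other neighbours whose levels lay close together in the control mice.

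The gene profiles most like that of Dach2, by the root mean square difference of log2 CPM centred on each gene over the 6 mice, were those of Avpi1 (0.23), Lrrc74b (0.26) and Sec14l2 (0.26). In Avpi1 mAktDKO mice had 3.17, 3.53 and 3.36 CPM and control mice 6.85, 5.91 and 3.18 CPM. The log2 ratio of Avpi1 was -0.67, and -0.44 without control mouse 2. The low value in control mouse 4 and the negative ratio follow from choosing genes by likeness to Dach2, so they are no separate observation.

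Downstream of Dach2, myogenin (Myog) was at 13.8, 12.2 and 8.23 CPM in mAktDKO mice 1, 2 and 3 and at 4.26, 7.51 and 4.69 CPM in control mice 2, 3 and 4. All mAktDKO mice were above all control mice, at a log2 ratio of 1.06 (SE 0.25) with an adjusted p of 0.0642 in edgeR and 0.00349 in DESeq2. The call thus depended on the test. When single mice were left out, the edgeR value lay between 0.90 and 1.35.

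Of the 7 genes of the acetylcholine receptor and the synapse, 4 lay higher and 3 lower, edgeR called 0 (2 higher at an unadjusted p under 0.05), and their median log2 ratio was 0.0059. The receptor's alpha and beta subunit genes lay higher in every mAktDKO mouse. Chrna1 had 24.7, 30.6 and 26.7 CPM against 18.9, 21.4 and 21.1 CPM, a log2 ratio of 0.42 (adjusted p = 0.0752, edgeR). Chrnb1 had 35.1, 41.8 and 36.8 CPM against 23.5, 28.1 and 29.7 CPM, a log2 ratio of 0.49 (adjusted p = 0.0621). The gamma subunit Chrng, which marks immature and denervated receptors, was at 0.137 to 0.761 CPM and 0.227 to 0.839 CPM, with a log2 ratio of -0.0099 (SE 0.64). The adult epsilon subunit Chrne had -0.21 (adjusted p = 0.465), with -0.095 without mAktDKO mouse 1, -0.37 without mAktDKO mouse 3 and -0.053 without control mouse 2. The 95% interval of Chrng was wide, from -1.46 to 1.44, so a difference inside it was not detectable with these mice at these counts.

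Among the 15 genes of the relay between the deacetylases and myogenin, Myog included, 8 lay higher and 7 lower, with a median of 0.042 and 0 calls in edgeR (1 higher and 3 lower at an unadjusted p under 0.05). Hdac5, another class IIa deacetylase, had 54.8 to 56.5 CPM in mAktDKO and 59.8 to 87.3 CPM in control mice, a log2 ratio of -0.32 (adjusted p = 0.196, edgeR), with control mouse 2 as the highest value, as in Hdac4, and -0.12 without that mouse. Mef2d, a MEF2 factor that these deacetylases repress, had -0.26 (adjusted p = 0.183), and -0.15 without control mouse 2.

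**Figure D3:**
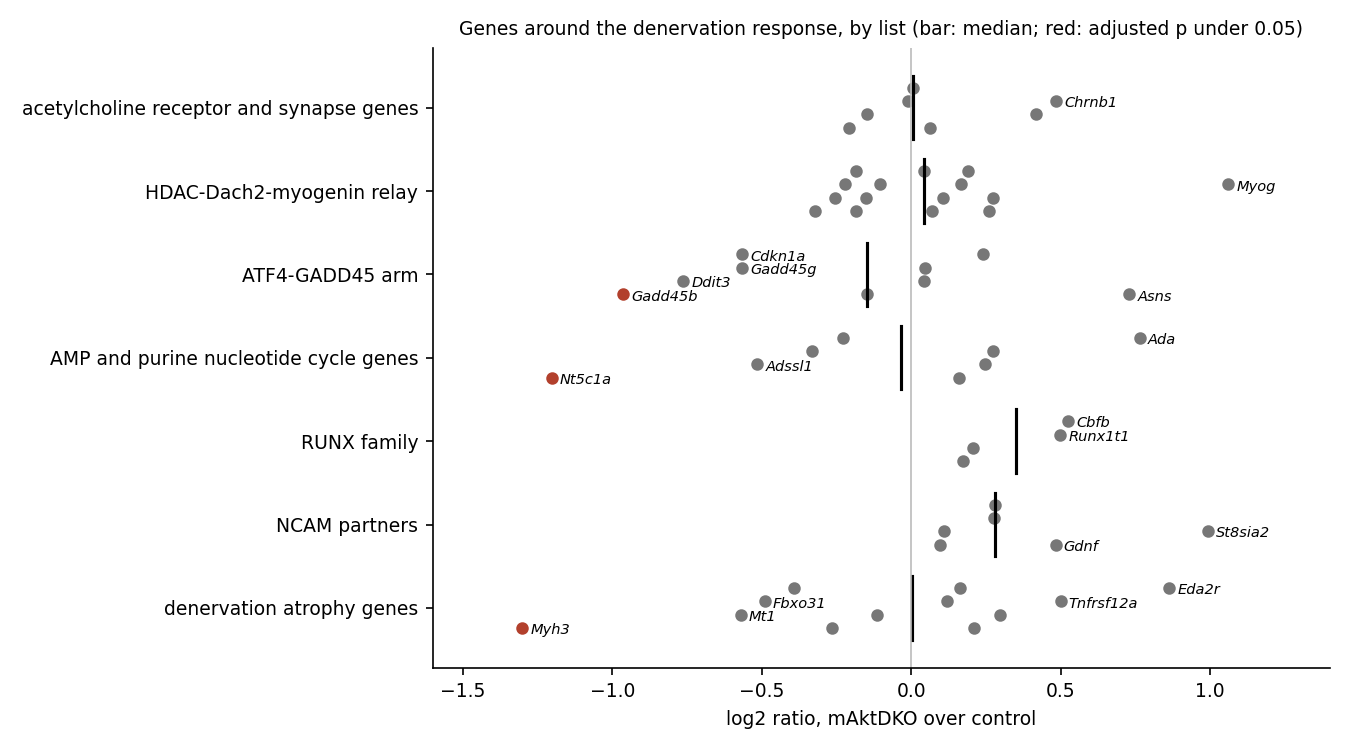
Log2 ratio of mAktDKO over control for the tested genes of 7 lists around the denervation response (1 point a gene; the bar is the list's median; red marks an adjusted p under 0.05; names are given beyond 0.45 in either direction). The red points are Gadd45b, Nt5c1a and Myh3, all lower in the mAktDKO mice.

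The paralogs of Gadd45a lay lower. Gadd45b, a stress gene of the same family, had 7.42, 5.63 and 6.79 CPM in mAktDKO and 14.96, 11.5 and 12.2 CPM in control mice. It was lower in every mAktDKO mouse, with a log2 ratio of -0.96 (SE 0.15) and an adjusted p of 0.0394 in edgeR and 0.000297 in DESeq2. Gadd45g had -0.57 (adjusted p = 0.0954), and -0.37 without control mouse 2. Of 9 genes around ATF4 and the GADD45 proteins, 4 lay higher and 5 lower, with a median of -0.15, and 1 higher and 4 lower had an unadjusted p under 0.05. The groups did not overlap in 1 that lay higher and in 5 that lay lower, against 14.6% and 16.6% of all genes. Asns (asparagine synthetase) had 0.73 and Ddit3 (CHOP) -0.76, both with an adjusted p of 0.106.

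Around Ampd3, the 8 tested genes of AMP metabolism and the purine nucleotide cycle lay 4 higher and 4 lower, with a median of -0.034. At an unadjusted p under 0.05, 0 were higher and 4 lower. Groups that did not overlap were seen in 2 that lay higher and in 4 that lay lower, against 14.6% and 16.6% of all genes. Nt5c1a, the cytosolic nucleotidase that turns AMP into adenosine in muscle, had 4.31, 3.06 and 4.05 CPM in mAktDKO and 8.46, 9.78 and 8.01 CPM in control mice. These groups were well apart, with a log2 ratio of -1.20 (SE 0.17), and the adjusted p was 0.0260 in edgeR and 9.36e-05 in DESeq2. The cycle's other enzymes Adssl1, the muscle adenylosuccinate synthase, and Adsl, the lyase, had -0.51 (adjusted p = 0.0913 in edgeR and 0.00789 in DESeq2) and -0.33 (adjusted p = 0.0761 in edgeR), and Adssl1 had -0.34 without control mouse 2. Adenylate kinase Ak1 had -0.23 (adjusted p = 0.172). Among the genes that lay higher, named after their values were seen, Ampd1, the main AMP deaminase of muscle, had 790 to 898 CPM in mAktDKO and 689 to 787 CPM in control mice (log2 ratio 0.16, adjusted p = 0.311), and Adss, the other adenylosuccinate synthase, had 0.27 (adjusted p = 0.248).

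All 4 tested genes of the Runx1 family and its partners lay higher under each scaling tried, with a median of 0.35 and 0 calls in edgeR (2 at an unadjusted p under 0.05). Cbfb, the subunit that RUNX factors need to bind DNA, had 90.7, 87.4 and 104 CPM in mAktDKO and 58.2, 73.5 and 64.1 CPM in control mice. Its groups did not overlap, and the log2 ratio of 0.52 (SE 0.11) had an adjusted p of 0.0539 in edgeR and 0.00231 in DESeq2. Runx1t1, the fusion partner of RUNX1 in leukaemia, had 0.50 (adjusted p = 0.147). Runx2 and Runx3 had 0.17 and 0.21, and their sign turned when single mice were left out.

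Of the partners of Ncam1, all 6 tested genes lay higher under each scaling tried, with a median of 0.28 and 0 calls in edgeR (1 at an unadjusted p under 0.05). The polysialyltransferase St8sia2, which puts polysialic acid on NCAM, had 1.59, 2.28 and 1.65 CPM against 0.909, 0.875 and 0.983 CPM, a log2 ratio of 0.99 (SE 0.29, adjusted p = 0.0925, edgeR) with groups that did not overlap. Its relative St8sia4 and the GDNF receptor Gfra1 each had 0.28 (adjusted p = 0.357 and 0.307). With one mouse left out, St8sia4 lay between 0.10 (without mAktDKO mouse 3) and 0.42 (without control mouse 3), and Gfra1 between 0.18 (without control mouse 2) and 0.46 (without control mouse 3).

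The genes of denervation atrophy were split, 6 higher and 6 lower of 12 tested, with a median of 0.0025 and 2 higher and 3 lower at an unadjusted p under 0.05. Myh3, the embryonic myosin heavy chain that regenerating and denervated fibres use again, was at 6.91, 9.29 and 10.01 CPM in mAktDKO and at 30.3, 16.2 and 18.1 CPM in control mice. It lay lower in every mAktDKO mouse, against the direction known for denervation, at a log2 ratio of -1.30 (SE 0.24, adjusted p = 0.0474 in edgeR and 9.996e-06 in DESeq2). Without control mouse 2, the log2 ratio of Myh3 was -0.97.

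The groups overlapped in both muscle ubiquitin ligases that myogenin is known to switch on. Trim63 (MuRF1) was at 105 to 200 CPM in mAktDKO and 144 to 176 CPM in control mice, with a log2 ratio of -0.12 (adjusted p = 0.757, edgeR). Fbxo32 (atrogin-1) was at 244, 181 and 318 CPM against 490, 192 and 211 CPM, with -0.27 (adjusted p = 0.658), which turned to 0.30 without control mouse 2. Fbxo30 (MUSA1) lay higher in every mAktDKO mouse at 0.30 (adjusted p = 0.0905), and Fbxo31 lay lower in every one at -0.49 (adjusted p = 0.0998), or -0.32 without control mouse 2. Eda2r, the ectodysplasin A2 receptor, whose signalling drives muscle wasting, had 25.9, 34.1 and 40.6 CPM against 23.2, 11.4 and 20.6 CPM, a log2 ratio of 0.86 (adjusted p = 0.0922 in edgeR and 0.00654 in DESeq2).

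**Figure D4:**
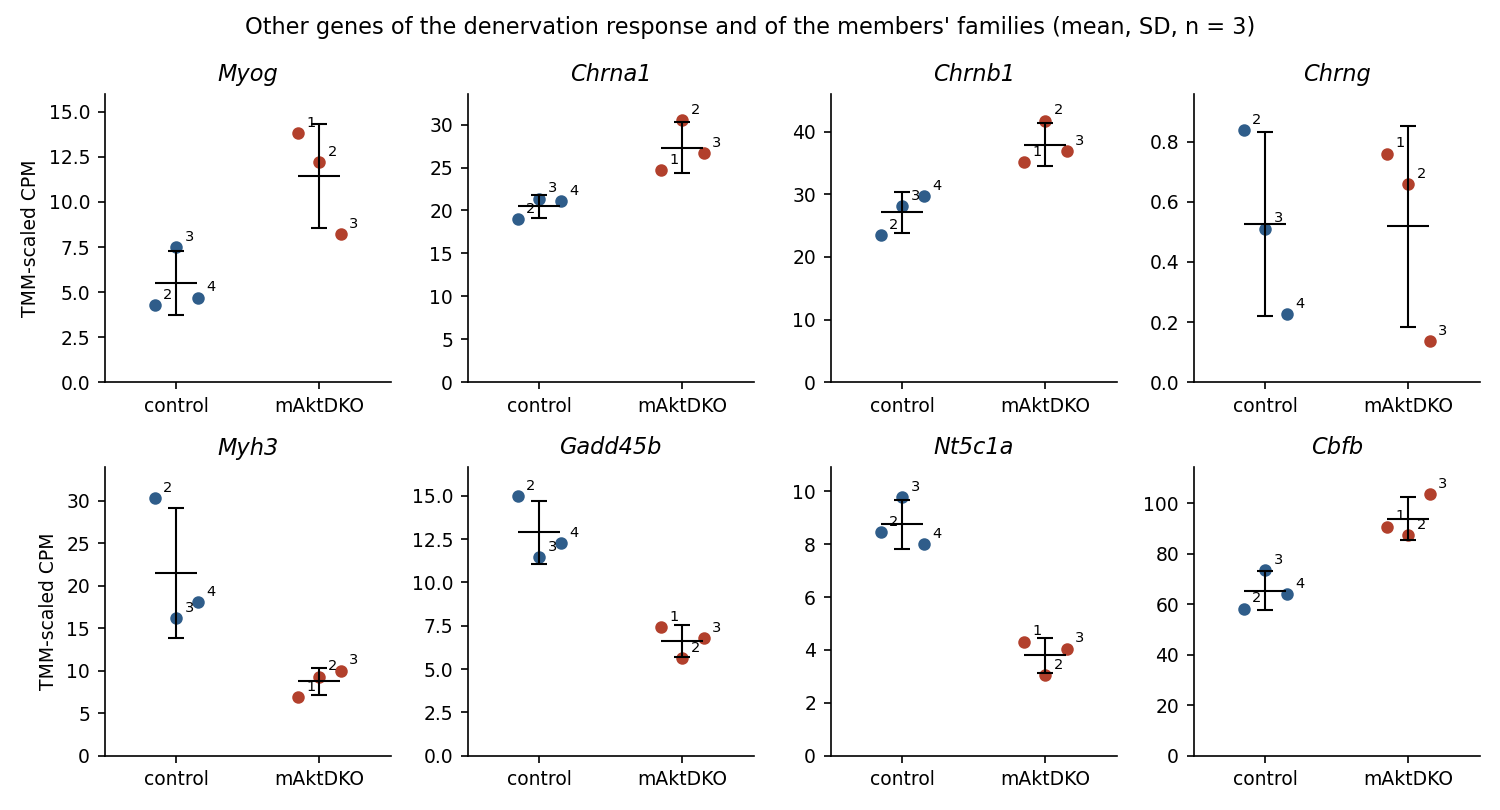
TMM-scaled CPM of 8 genes related to the 7, drawn as for those (numbers are mice, bars means, whiskers SD, n = 3). Myog, Chrna1, Chrnb1 and Cbfb lie above the control mice in every mAktDKO mouse, Myh3, Gadd45b and Nt5c1a below, and the groups of Chrng overlap.

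The tissue label was checked on fibre markers. Myh4, the fastest myosin heavy chain, had between 47022 and 55567 CPM (log2 ratio -0.018), and the summed CPM of 7 fast fibre markers was 100262 to 112462 in the mAktDKO mice and 114445 to 123833 in the control mice. All 7 lay lower (1 lay higher with libraries scaled by their totals), 3 at an unadjusted p under 0.05. These 3, named after their values were seen, were Myh2 (log2 ratio -0.79), Myh1 (-0.51) and Pvalb (-0.41). The groups did not overlap in 4 of the 7, against 16.6% of all genes that lay lower in this way. Atp2a1, the most abundant after Myh4, had -0.22. The sum of 5 slow fibre markers was 644 to 1243 and 572 to 831, and 4 of the 5 lay higher (5 by library totals). The most abundant of them, Myh7, had a log2 ratio of 0.90 and was the 1 at an unadjusted p under 0.05. Atp2a2, the next, had 0.35, and the groups overlapped in both genes. The sum of 4 genes of fibro-adipogenic progenitors was 18175 to 21680 CPM against 7261 to 18320 CPM, lowest in control mouse 2, and that of 5 endothelial markers 462 to 519 against 394 to 486 CPM. The sums of the slow fibre, progenitor and endothelial markers overlapped between the groups, and edgeR called 0 genes of these lists and of the fast fibre list. All 4 progenitor markers lay higher, with a median log2 ratio of 0.44, 2 of them at an unadjusted p under 0.05. Groups that did not overlap were seen in 2 of the 4, against 14.6% of all genes that lay higher in this way. Col1a1 took most of the summed CPM of the 4 markers. The part of these cells in the values of the 7 genes was not tested.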

How the data were processed

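EDL RNA of 3 mAktDKO mice and of 3 control mice was analysed. Per the labels and the study's methods, the authors depleted ribosomal RNA, read directional libraries from both ends (37 bp), mapped them to mm10 with STAR (2.6.1b in the submitters' processing notes) and deposited gene-level estimated counts (expected counts) from RSEM 1.3.1, not scaled between mice. Between 3.36% and 4.09% of values in a mouse were not whole, and they were rounded. RSEM divides reads that fit several genes, and depth limits genes with few counts.

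Low genes were then removed (filterByExpr, minimum count 10) and the TMM scaling and quasi-likelihood test of edgeR 4.0.16 applied, in R 4.3.3. The standard error is the log2 ratio divided by the square root of F, and 95% intervals come from it. Exon lengths are unions of GENCODE M21 exons. Column numbers of control mice (2 to 4) are not those of their labelled samples (1 to 3), so each column stands for its group. No columns were copies of each other. Besides the 7 genes, the text names Akt1 and Akt2, in each list the 4 genes with the smallest p, which include all with an adjusted p under 0.05, Myog, Chrna1, Chrng, Trim63 and Fbxo32, the most abundant markers and the 3 profiles nearest to Dach2. The results of 2 genes that this rule names are not reported here. The genes and lists were chosen with earlier results of these data known. The alternatives were other scalings, filters and thresholds, DESeq2 1.42.0, limma-voom 3.58.1 and leaving out each mouse. The steps were tested on simulated data.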

Additional observations from a re-analysis of the deposited data

How the results depend on the processing

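The number of all genes called by edgeR, 3, was 152 at an adjusted p under 0.05, 32 without the filter on low counts and 341 with DESeq2, and 0 to 8 when single mice were left out (0 without any one of the mAktDKO mice, with 1871 to 2794 genes at an unadjusted p under 0.05, and 8 without control mouse 2). The cause was not tested, except that fewer samples were left. None of the 7 genes was called at 0.01 under any alternative run (DESeq2 gave Dach2 no adjusted p), with 2 to 4 at an unadjusted p under 0.05. Library totals moved the median of all genes from 0.017 to 0.16. Under them, Hdac9 turned to 0.042, Chrng to 0.14 and Trim63 to 0.0081, and 5 of the 7 genes lay in the direction known for denervation. Among the other named genes, library totals gave log2 ratios moved by over 1.5 times in Akt1 (-0.11), Ak1 (-0.092), Adsl (-0.19), Hdac5 (-0.18), Mef2d (-0.12), Chrne (-0.072), Fbxo32 (-0.13), Runx2 (0.32) and Runx3 (0.35). List medians moved too, to 0.14 in the receptor and synapse genes, 0.18 in the relay and -0.0089 around ATF4. They became 0.10 in AMP metabolism, 0.14 in denervation atrophy, -0.089 in the fast fibre, 0.40 in the Schwann cell and 0.29 in the satellite cell markers. With single mice left out, log2 ratios ranged from -0.39 to 0.053 in Hdac9, -0.88 to 1.12 in Runx2, -0.23 to 0.59 in Runx3, -0.37 to 0.50 in Chrng, -0.44 to 0.071 in Trim63 and -0.50 to 0.30 in Fbxo32. The other 6 of the 7 genes kept their sign in all of these fits. Akt2 was called except without any one of the mAktDKO mice. No paired analysis was possible because column numbers of control mice (2 to 4) and of labelled control samples (1 to 3) differ.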

Other observations

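Among the erythroid markers, Hbb-bs had 0 counts in all control mice and 23.5, 9.23 and 10.01 CPM in mAktDKO mice 1, 2 and 3, while the neighbouring copy Hbb-bt had 9.74 to 23.1 CPM and 8.997 to 13.2 CPM. The adjusted p of Hbb-bs was 0.018 in edgeR. Counts of near-identical copies are uncertain, because RSEM divides the reads they share, and its part in this value was not tested. The summed CPM of 3 adipocyte markers was 46.3 to 135 in the mAktDKO mice and 37.3 to 77.9 in the control mice. All 3, Adipoq (log2 ratio 1.16), Cfd (0.88) and Plin1 (0.84), lay higher at an unadjusted p under 0.05 and with overlapping groups, and edgeR called 0 of them.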
